A study of Mus musculus with 10 samples.

Results

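Chemokines are small secreted proteins that direct the migration of leukocytes, and they act through G protein-coupled receptors on the cells they attract. Atypical receptors bind chemokines as well, but take them up or present them instead of signalling through G proteins. In the injured liver, reactive cholangiocytes, the proliferating cells of the bile ducts, are known as one source of chemokines, next to macrophages, endothelial cells and stellate cells. Genes were taken from the gene table where the symbol names a chemokine ligand (*Ccl*, *Cxcl*, *Cx3cl1*, *Xcl1*), a chemokine receptor (*Ccr*, *Cxcr*, *Cx3cr1*) or an atypical receptor (*Ackr*), which gave 60 of 49568 genes, with 39 ligands and 21 receptors. The choice rested on the symbols alone, but it was made with earlier results of these data known.

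RNA from reactive cholangiocytes was sequenced for 5 *Ctl* and 5 *Smad4del* mice, 1 sample per mouse. For 2 weeks both groups were fed DDC at 0.1% of the diet, which injures bile ducts, and liver cells were sorted by FACS as positive for EPCAM and negative for CD45, TER119 and the dead cell dye TO-PRO-3. The labels give the *Smad4del* mice as Smad4fl/fl and the *Ctl* mice as Smad4wt/wt; the methods describe *Smad4* alleles deleted by *Alb-Cre*, whose Albumin promoter is active in hepatocytes and, through their shared precursor, in bile duct cells, and control mice without *Alb-Cre*, on a mixed background. An effect of Cre itself therefore cannot be told apart from that of *Smad4* loss, and age and sex are not given in the sources used here. Mice are named by the numbers in the labels, and values are listed in the order A5215, A5219, A5221, A5626 and A5628 for *Ctl* and A5216, A5217, A5218, A5447 and A5624 for *Smad4del*. Every value is a normalized count, the authors' read count of a gene divided by 1 size factor per mouse; errors are SD over 5 mice, and fold changes are *Smad4del* against *Ctl* on the scale of log2(normalized count + 1).

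*Smad4* itself was at 3389 ± 347 in *Ctl* and 877 ± 144 in *Smad4del* mice, a log2 fold change of -1.96 (limma adjusted p = 1.09e-05), and the groups did not overlap. Reads on genes ranged from 16249719 to 21277339 per *Ctl* mouse and from 16734672 to 19710560 per *Smad4del* mouse. The sorted cells carried the label's markers: all 12 cholangiocyte markers were measured, with sums of 348285 to 509602 in *Ctl* and 503085 to 633430 in *Smad4del* mice, 2 of them called higher. RNA of cells that the sort should remove was present too, and fewer such cells cannot be told apart from less RNA per cell in bulk samples. Endothelial markers summed to 25324 to 74981 in *Ctl* and 8659 to 19824 in *Smad4del* mice, with 13 of 16 called lower and none at 0. Macrophage and monocyte markers summed to 39523 to 335136 and 28535 to 113768, with 1 of 18 called lower and none at 0; stellate and fibroblast markers to 31210 to 59548 and 21087 to 30639, with 2 of 12 called lower and none at 0. Of the other lists, dendritic markers had 1 of 6 called lower, and the 4 mesothelial, 11 hepatocyte and 4 tested of 7 B cell and plasma cell markers had no call, with *Pax5* at 0 in all mice. The *Ctl* mouse A5215 stood apart, with the highest macrophage and endothelial sums and the lowest cholangiocyte sum of all 10 mice, so results that rest on it are also given without it.

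Of the 60 genes, 42 had a mean normalized count of at least 10 and were tested, 28 ligands and 14 receptors. Another 7 genes, *Ccl1*, *Ccl21a*, *Ccl21b*, *Ccl21c*, *Ccl26*, *Ccl27b* and *Cxcr1*, were at 0 in all mice, and 11 genes had some reads but a mean under 10. By limma with Benjamini-Hochberg adjustment over all 14870 tested genes, 9 of the 42 were lower in *Smad4del* mice (21.4%, against 4.69% of all tested genes) and 1 was higher (2.38%, against 2.43%). The genes that fell were the ligands *Cxcl10*, *Cxcl11*, *Ccl5*, *Ccl7*, *Ccl11* and *Ccl24* and the atypical receptors *Ackr1*, *Ackr2* and *Ackr3*; the gene that rose was *Cxcl17*. The groups did not overlap, with *Smad4del* lower, for 5 of the 42 (11.9%, against 4.59% of all tested genes) and, with *Smad4del* higher, for 1 (2.38%, against 3.5%). The log2 fold change was below 0 for 35 of the 42 genes, or 83.3%, against 50.6% of all tested genes, and its median was -1.20 against -0.0050. Over all tested genes limma called 362 higher and 697 lower, and 626 and 639 after scaling to equal medians, under which 1 of the 42 was higher and 9 were lower. *Cxcl11* and *Cxcr3* passed the minimum only through the *Ctl* mice and *Ccr10* only through the *Smad4del* mice, so these counts describe the genes above the minimum and not all 60. On recovered read counts DESeq2 called 10 of the 40 genes it adjusted lower (25.0%, against 8.89% of all genes it adjusted) and edgeR 7 of the 42 (16.7%, against 4.02%).

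**Figure D1:**
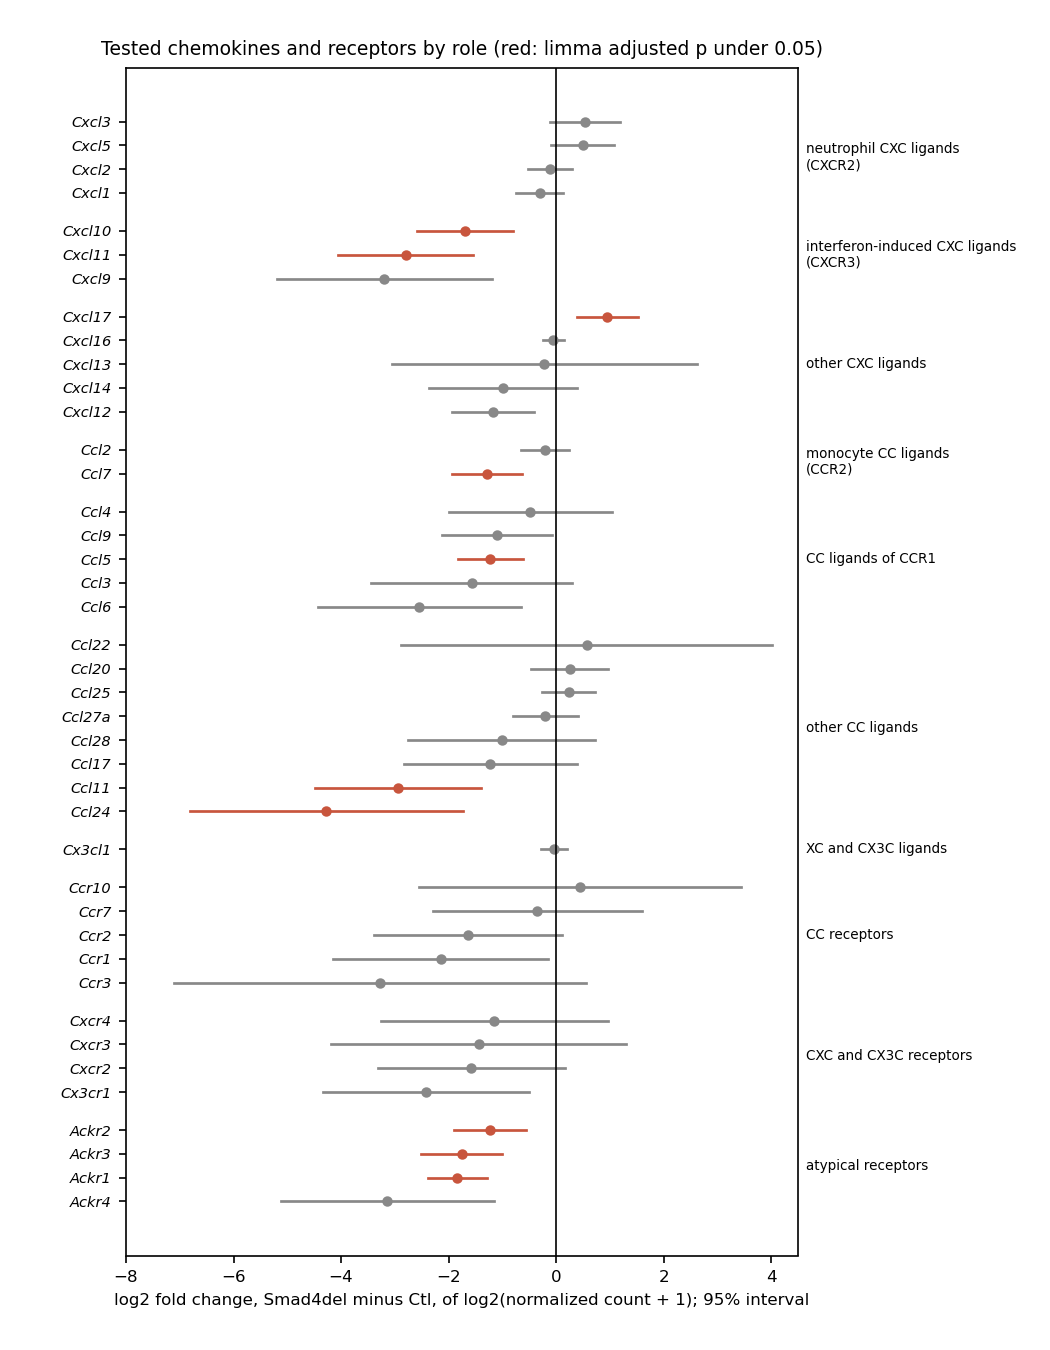
Log2 fold change of all but 1 of the tested genes (x axis, *Smad4del* minus *Ctl*, of log2(normalized count + 1)), grouped by role, with its 95% interval from limma; red genes have an adjusted p under 0.05. The 9 genes called lower include 3 of the 4 atypical receptors and 2 of the 3 interferon-induced CXC ligands, while the intervals of the 4 neutrophil CXC ligands include 0. No CC, CXC or CX3C receptor is red, though most of them lie below 0.

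The most abundant ligands were attractants of monocytes, neutrophils and lymphocytes. Per kilobase of exon, which allows levels of different genes to be compared, *Ccl2* was first among the chemokines and receptors with a mean of 12781 normalized counts per kb, ahead of *Cxcl1* with 3846, *Ccl20* with 3317, *Cxcl16* with 2844, *Cxcl5* with 2287 and *Ccl6* with 1584. *Ccl2*, *Cxcl16*, *Cxcl1*, *Ccl20* and *Cxcl5* together held 48.7 to 86.6% of all ligand counts in *Ctl* and 75.2 to 87.1% in *Smad4del* mice. The lowest of these shares was that of A5215, in which *Ccl6* alone held 23.2%, while the other *Ctl* mice reached 72.6 to 86.6%. The summed counts of all 39 ligands were 44485 to 61179 in *Ctl* and 40483 to 49446 in *Smad4del* mice, with overlap.

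**Figure D2:**
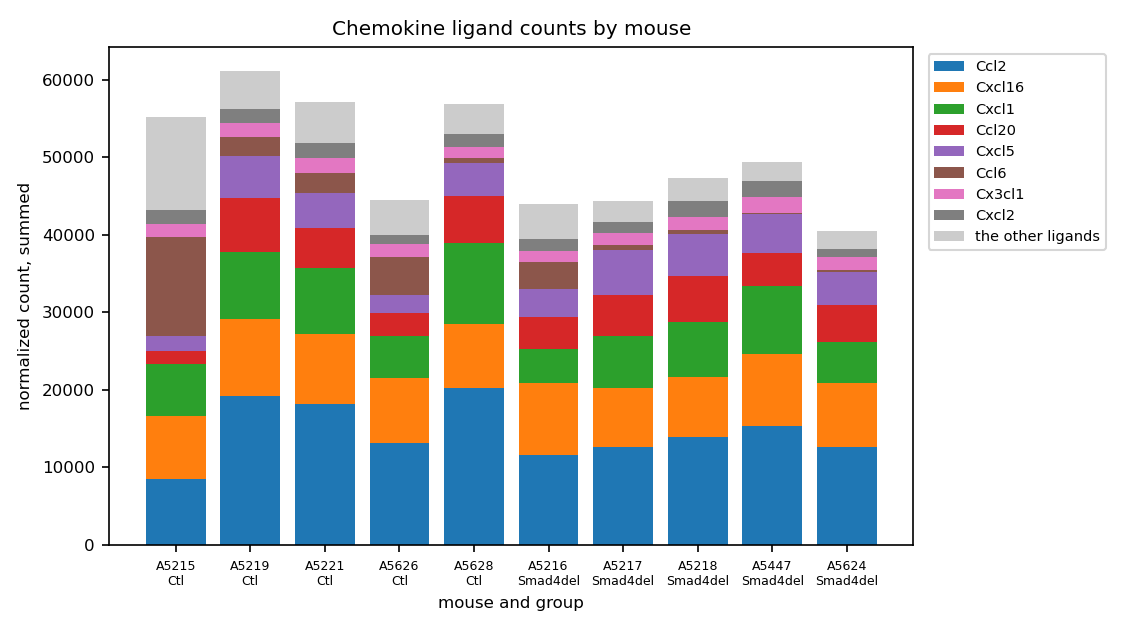
Summed normalized counts of the chemokine ligands (y axis) in each mouse (x axis), with the 8 ligands of the highest mean as segments and the other ligands in grey. *Ccl2*, *Cxcl16*, *Cxcl1*, *Ccl20* and *Cxcl5* form most of every bar except that of A5215, where *Ccl6* is the largest segment at 12807.

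The neutrophil attractants *Cxcl1*, *Cxcl2*, *Cxcl3* and *Cxcl5*, which act on the receptor CXCR2, were all measured. With the group as the only term, none of the 4 passed the test with limma, DESeq2 or edgeR, also at an unadjusted p under 0.05. *Cxcl1* was at 6672, 8686, 8503, 5451 and 10479 in *Ctl* and 4478, 6689, 7066, 8754 and 5339 in *Smad4del* mice. *Cxcl5* was at 1876, 5449, 4499.8, 2341 and 4204 in *Ctl* and 3654, 5832, 5398, 4999 and 4361 in *Smad4del* mice. Both genes overlapped between the groups, and the 2 lowest *Cxcl5* values were those of the *Ctl* mice A5215 and A5626. The log2 fold changes were -0.30 for *Cxcl1* (95% interval -0.74 to 0.14), -0.12 for *Cxcl2* (-0.52 to 0.29), 0.54 for *Cxcl3* (-0.11 to 1.19) and 0.49 for *Cxcl5* (-0.09 to 1.08). *Cxcl15*, the remaining gene of this group, stayed between 0 and 11.0. The CXCR2 gene, *Cxcr2*, was measured at 22.2 to 158 in *Ctl* and 3.68 to 144 in *Smad4del* mice. Neutrophil markers summed to 373 to 3695 and 170 to 2229, with 7 of 10 tested, 0 called by limma and *Ly6g* at 0 in all mice.

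The 3 genes *Cxcl3*, *Cxcl1* and *Cxcl2* lie close together on chromosome 5, in a region that also holds *Cxcl5* and *Cxcl15*. Like *Ccl20* on chromosome 1, the first 3 share a short sequence before their start sites. Promoter windows of 250 bases before the start were found for 44 of the 60 genes (RefSeq, GRCm38.p6), and were searched on both strands for GGGNNTTTCC, a form of the site bound by NF-kB, the transcription factor that drives many inflammatory chemokines. These letters stand in 1.41% of 32851 windows of all genes and in those of 6 of the 44 genes, *Cxcl1*, *Cxcl2*, *Cxcl3*, *Ccl20*, *Ccl9* and *Ccr3*. None of the 6 was called by limma, but only 4 of all 44 were, so this does not set the 6 apart. Other forms of the NF-kB site were not searched. Of the same chromosome 5 region, *Cxcl15* was not among the 6 and *Cxcl5* had no window, so the match is not a trait of the whole region. The stretches of *Cxcl1*, *Cxcl2*, *Cxcl3* and *Ccl20*, the ligand with the third highest level per kilobase, are printed 5′ to 3′ on the strand of the gene. They run up to the base before the RefSeq start, with the matches of either strand in capitals. All 4 genes lie on the + strand.
Cxcl1, chr5:90891125-90891244: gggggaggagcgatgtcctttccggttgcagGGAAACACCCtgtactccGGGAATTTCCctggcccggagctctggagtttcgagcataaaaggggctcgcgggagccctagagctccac
Cxcl2, chr5:90903779-90903898: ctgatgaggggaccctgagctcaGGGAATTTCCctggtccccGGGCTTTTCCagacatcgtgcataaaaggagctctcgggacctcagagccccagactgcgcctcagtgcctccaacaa
Cxcl3, chr5:90785981-90786100: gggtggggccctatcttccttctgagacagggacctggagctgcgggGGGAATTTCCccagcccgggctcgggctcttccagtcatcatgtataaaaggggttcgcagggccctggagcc
Ccl20, chr1:83116646-83116765: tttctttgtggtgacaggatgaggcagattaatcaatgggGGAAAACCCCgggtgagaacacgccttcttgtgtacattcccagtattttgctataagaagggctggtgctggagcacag
*Cxcl1* and *Cxcl2* hold 2 matches each, and *Cxcl3* and *Ccl20* hold 1. Between the nearest match and the start lie 61 bases in *Cxcl1*, 68 in *Cxcl2*, 63 in *Cxcl3* and 70 in *Ccl20*. The palindrome GTCTAGAC, the classical site of SMAD proteins, stands in 0.167% of all windows and in none of the 44. So rare a pattern was unlikely to stand in any of 44 windows, and other SMAD sites were not searched. Its absence therefore says nothing about SMAD binding. Of the 10 called genes the 44 hold 4, *Cxcl10*, *Ackr1*, *Ackr2* and *Ackr3*, and the other 6 were not searched.

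*Ccl20*, the ligand of CCR6 on T helper and B cells, was at 1687, 6928, 5160.5, 2919 and 6075 in *Ctl* and 4050.5, 5314, 5998, 4296 and 4709 in *Smad4del* mice. The *Ctl* values held both the lowest and the highest of the 10, and the log2 fold change was 0.26 (95% interval -0.46 to 0.97). *Cxcl16*, a membrane-bound ligand of CXCR6, was at 8132, 9992, 9007, 8363 and 8177 in *Ctl* and 9288, 7654, 7742, 9314 and 8261 in *Smad4del* mice. The groups overlapped, and the log2 fold change was -0.05 (95% interval -0.24 to 0.15). *Cx3cl1*, fractalkine, the ligand of CX3CR1, had a log2 fold change of -0.04 (-0.29 to 0.20), with 1464 to 1943 in *Ctl* and 1355 to 1976 in *Smad4del* mice. With scaling to equal medians the fold changes of *Cxcl16* and *Cx3cl1* were 0.017 and 0.021. Exons of *Cxcl16* share 552 bases with *Zmynd15* on the opposite strand. The receptor genes of CCL20 and CXCL16 were low, with *Ccr6* at 0 to 20.4 and *Cxcr6* at 0 to 47.9 over the 10 mice.

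The interferon-induced CXC ligands *Cxcl9*, *Cxcl10* and *Cxcl11* attract T and NK cells through CXCR3. In *Smad4del* mice 2 of the 3 fell, *Cxcl10* and *Cxcl11*. *Cxcl10* (chr5:92346638-92348889, - strand) was at 1367, 243, 675, 498 and 379.7 in *Ctl* and 193, 209, 109.5, 242 and 109.6 in *Smad4del* mice. The lowest *Ctl* value, that of A5219, lay just above the highest *Smad4del* value, that of A5447, and A5215 was the highest by far. *Cxcl10* thus had a log2 fold change of -1.69 ± 0.41 (SE, limma adjusted p = 0.0314), and -1.35 without A5215 (adjusted p = 0.0450). *Cxcl11* (chr5:92359544-92365485, - strand) was at 67.5, 11.0, 40.7, 55.6 and 44.4 in *Ctl* and 5.18, 8.98, 2.03, 3.68 and 5.22 in *Smad4del* mice. No *Smad4del* mouse reached 10, so *Cxcl11* passed the minimum mean of 10 only through the *Ctl* mice. The groups did not overlap. For *Cxcl11* this gave a log2 fold change of -2.80 ± 0.58 (SE, limma adjusted p = 0.0171), and the call stood without any single mouse. *Cxcl9* was at 182, 40.8, 32.4, 70.0 and 36.6 in *Ctl* and 39.4, 16.0, 0, 2.76 and 3.13 in *Smad4del* mice, with A5218 at 0. Its log2 fold change of -3.19 missed the threshold with limma (adjusted p = 0.0554), with edgeR (adjusted p = 0.127) and with DESeq2 without A5217 (adjusted p = 0.0684), and passed with DESeq2 on all 10 mice (adjusted p = 0.0369). The call of *Cxcl10* was lost without any one of A5221, A5626, A5217, A5218 or A5624 (limma adjusted p up to 0.0816). Exons of *Cxcl10* and *Cxcl11* overlap genes of the opposite strand by 133 and 1582 bases, and the annotation types *Cxcl11* as a polymorphic pseudogene, and without a known strand setting such reads cannot be assigned to one of the genes.

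The window of *Cxcl10* held the letters GAAANNGAAA, part of the interferon-stimulated response element, which stand in 2.98% of all windows and in 3 of the 44, those of *Cxcl10*, *Ccl19* and *Cxcl14*. The match is in capitals with 203 bases between it and the start; the gene lies on the - strand and is printed in its own direction.
Cxcl10, chr5:92348890-92349107: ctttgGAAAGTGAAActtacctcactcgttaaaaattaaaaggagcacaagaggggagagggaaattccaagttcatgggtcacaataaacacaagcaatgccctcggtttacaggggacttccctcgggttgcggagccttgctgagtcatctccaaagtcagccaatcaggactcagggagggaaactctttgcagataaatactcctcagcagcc
The window of *Cxcl9* held no match of these letters, which says only that they are not there. The receptor of all 3 ligands, *Cxcr3*, was at 42.4, 30.6, 0, 28.8 and 0 in *Ctl* and 1.04, 2.99, 0, 5.53 and 4.18 in *Smad4del* mice. It overlapped between the groups and was not called (log2 fold change -1.44, 95% interval -4.18 to 1.29). The T and NK list, of whose 12 markers 9 had a mean under 10 and none was at 0 in all mice, summed to 199 to 838 in *Ctl* and 118 to 256 in *Smad4del* mice, with 1 marker called lower; its part in the result was not tested.

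Among the other CXC ligands, *Cxcl17*, a chemokine of mucosal epithelia, was the only one of the 42 tested genes that limma called higher. *Cxcl17* (chr7:25400053-25412886, - strand) was at 88.1, 56.9, 62.0, 67.1 and 93.3 in *Ctl* and 115, 133, 173, 207 and 99.2 in *Smad4del* mice. All 5 *Smad4del* values lay above the highest *Ctl* value, by 99.2 against 93.3 at the nearest. Its log2 fold change was 0.95 ± 0.26 (SE, limma adjusted p = 0.0492), close to the threshold. The call was lost without any single mouse except A5624 (limma adjusted p up to 0.112) with edgeR (adjusted p = 0.0507) and with the range of mouse numbers as a term (limma adjusted p = 0.0556), and kept with DESeq2 (adjusted p = 0.00977). Cholangiocyte marker sums were also higher in the *Smad4del* mice on average and overlapped between the groups, and their part in the result was not tested.

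*Cxcl12*, the ligand of CXCR4 and ACKR3 that stromal and endothelial cells make, was at 3037, 1397, 1415, 922 and 829 in *Ctl* and 834, 492, 858, 337 and 670.2 in *Smad4del* mice. A5215 held the highest value, and A5216 and A5218 lay just above the lowest *Ctl* mouse. Its log2 fold change of -1.17 did not pass with limma (adjusted p = 0.0619) or edgeR (adjusted p = 0.0637) and passed with DESeq2 (adjusted p = 0.00342) and with limma when the range of mouse numbers was added as a term (adjusted p = 0.0297). *Cxcl13*, which attracts B cells through CXCR5, ran from 1.92 to 378 in *Ctl* and from 5.07 to 141 in *Smad4del* mice, and *Cxcl14* from 42.2 to 591 and from 46.1 to 223. Neither was called, and their intervals were wide, -3.06 to 2.62 and -2.37 to 0.39 on the log2 scale.

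**Figure D3:**
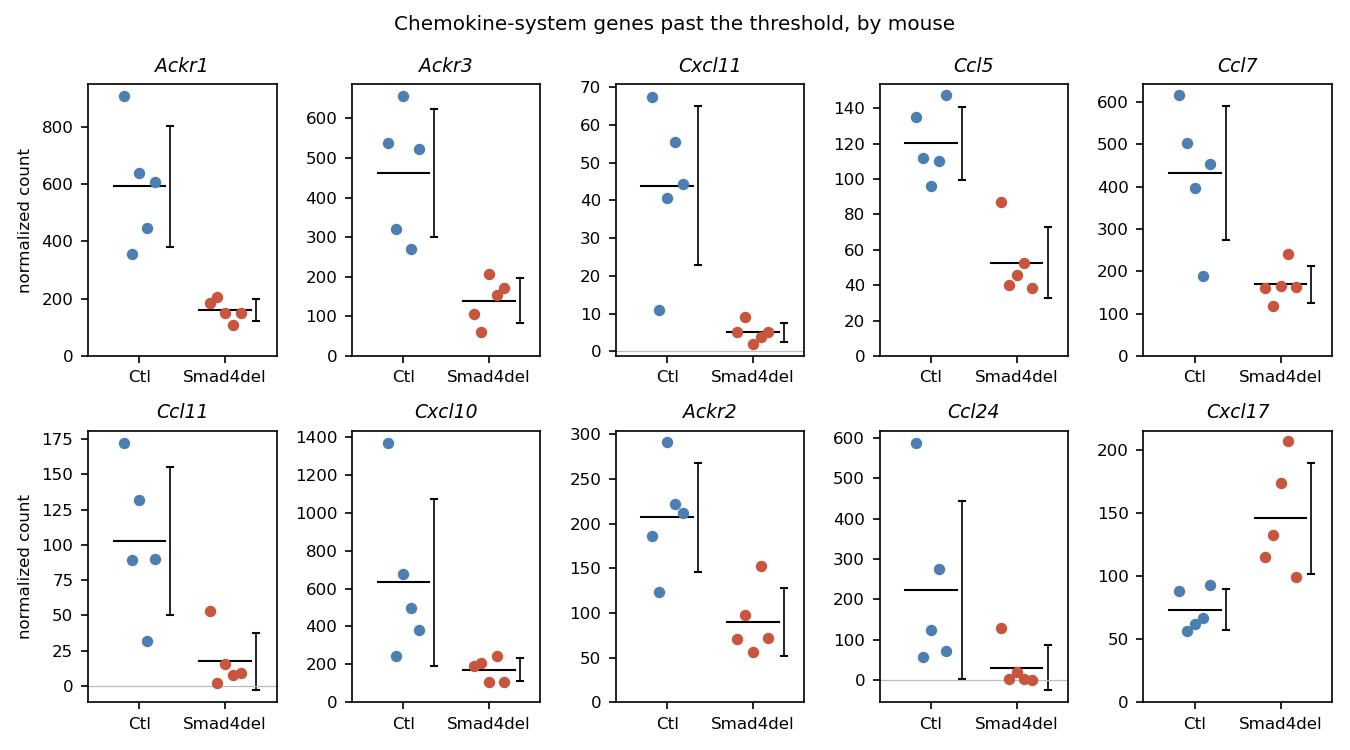
Normalized count (y axis, each panel with its own scale) of the 10 called genes in each *Ctl* (blue) and *Smad4del* (red) mouse; lines are means, and bars are SD over 5 mice. The groups do not overlap for *Ackr1*, *Ackr3*, *Cxcl11*, *Ccl5*, *Cxcl10* and *Cxcl17*, and overlap for *Ccl7*, *Ccl11*, *Ackr2* and *Ccl24*.

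*Ccl2*, *Ccl7* and *Ccl11* lie within one stretch of chromosome 11 (chr11:82035571-82062955, all on the + strand), and the last 2 of them fell. *Ccl2*, the main attractant of CCR2-bearing monocytes, was at 8534, 19157, 18224, 13204 and 20296 in *Ctl* and 11551, 12608, 13902, 15365 and 12603 in *Smad4del* mice. The lowest and the highest value both belonged to *Ctl* mice, and the log2 fold change was -0.21 (95% interval -0.66 to 0.25). Without A5215, the lowest mouse, that of *Ccl2* was -0.41 and was not called either (limma adjusted p = 0.101). *Ccl7*, a second ligand of CCR2, fell: it was at 617, 503, 398, 189 and 453 in *Ctl* and 161, 119, 164, 240.4 and 163 in *Smad4del* mice. A5626 was the only *Ctl* mouse inside the *Smad4del* range. The log2 fold change was -1.28 ± 0.30 (SE, limma adjusted p = 0.0267), and the call was lost without any one of A5215, A5221, A5628, A5217, A5218 or A5624 (adjusted p up to 0.0713). *Ccl11*, eotaxin, which attracts eosinophils through CCR3, fell as well, and was at 172, 89.2, 131, 31.6 and 89.9 in *Ctl* and 52.9, 2.00, 15.2, 7.37 and 9.40 in *Smad4del* mice. A5216 held the highest *Smad4del* value and A5626 the lowest *Ctl* value, and these 2 mice crossed. The log2 fold change was -2.94 ± 0.71 (SE, limma adjusted p = 0.0304), without the call when any one of A5215, A5221, A5628, A5217, A5218 or A5624 was left out (adjusted p up to 0.0748) and with edgeR (adjusted p = 0.0621). As a percent of *Ccl2* in the same mouse, *Ccl7* was 1.43 to 7.23% in *Ctl* and 0.942 to 1.56% in *Smad4del* mice, and *Ccl11* 0.240 to 2.01% and 0.0158 to 0.458%; these ratios were chosen after the values were seen, and the difference between the genes was not tested. *Ccl12*, the third CCR2 ligand, stayed at or below 14.1.

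*Ccl24*, another eotaxin, had the largest fold change of the called genes on the log2(normalized count + 1) scale and a call close to the threshold. It was at 587, 56.9, 125, 274 and 71.0 in *Ctl* and 129.6, 2.00, 20.3, 2.76 and 0 in *Smad4del* mice. The *Smad4del* mouse A5216 lay above 3 of the 5 *Ctl* mice, and A5624 was at 0. Its log2 fold change was -4.27 ± 1.17 (SE, limma adjusted p = 0.0479), and -3.79 without A5215 (adjusted p = 0.105). The call was lost without any single mouse except A5219 and A5216 (adjusted p up to 0.115), with DESeq2 (adjusted p = 0.137) and with edgeR (adjusted p = 0.161). Its log2 fold change was -2.85 with DESeq2 and -2.84 with edgeR, smaller than those of *Cxcl11*, -3.13 and -3.08. *Ccr3*, the receptor of both eotaxins, was at 524, 122, 75.0, 266 and 0 in *Ctl* and 94.3, 0, 41.6, 2.76 and 0 in *Smad4del* mice. With 1 *Ctl* and 2 *Smad4del* mice at 0, it was not called (log2 fold change -3.28, 95% interval -7.10 to 0.55).

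Among the CC ligands *Ccl3*, *Ccl4*, *Ccl5*, *Ccl6* and *Ccl9*, *Ccl5* fell and the other 4 were not called. *Ccl5*, or RANTES, which attracts T cells and monocytes, was at 135, 112, 96.2, 110.3 and 148 in *Ctl* and 87.1, 39.9, 45.6, 52.5 and 38.6 in *Smad4del* mice. The lowest *Ctl* value, that of A5221, lay above the highest *Smad4del* value, that of A5216. The log2 fold change was -1.22 ± 0.27 (SE, limma adjusted p = 0.0237). Leaving out any one of A5215, A5628, A5217, A5218 or A5624 ended the call, at adjusted p values of up to 0.0631. *Ccl6* was at 12807, 2466, 2542, 4884 and 674 in *Ctl* and 3526, 618, 525, 136 and 249 in *Smad4del* mice. The SD of the *Ctl* mice, 4786 around a mean of 4675, exceeded the difference to the *Smad4del* mean of 1011, with A5215 far above all others and A5216 above 3 *Ctl* mice (log2 fold change -2.54, limma adjusted p = 0.0905). *Ccl9*, *Ccl3* and *Ccl4* had log2 fold changes of -1.09, -1.57 and -0.48, and A5215 held the highest value of each.

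The remaining CC ligands showed no call. *Ccl17* and *Ccl22*, which bind CCR4, were at 12.2 to 162 and 0 to 169.7 in *Ctl* and at 5.99 to 48.7 and 0 to 149 in *Smad4del* mice. *Ccl25*, the ligand of CCR9, was at 70.3 to 124 and 93.3 to 136, with a log2 fold change of 0.23 (-0.26 to 0.72). *Ccl27a* and *Ccl28*, ligands of CCR10, had log2 fold changes of -0.20 (-0.81 to 0.41) and -1.01 (-2.75 to 0.73). Reads of the near-identical copies of *Ccl19*, *Ccl21* and *Ccl27* are uncertain, since it is not given whether multi-mapping reads were counted; *Ccl19* had reads in 1 mouse, with 1.84, *Ccl8* reached at most 39.2, and *Xcl1* at most 4.25.

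The atypical receptors were the group with the largest share called lower, 3 of 4. Their median log2 fold change, -1.80, was near that of the CC receptors, -1.81, and of the CXC and CX3C receptors, -1.51. None of the latter 2 groups was called, though 5 of 6 and 4 of 4 were below 0. *Ackr1*, which binds many CC and CXC ligands and is made by venular endothelium and erythroid cells, lies at chr1:173331886-173333750 on the - strand. It was at 909, 358, 639, 447 and 609 in *Ctl* and 187, 205, 151, 109 and 151 in *Smad4del* mice. All 5 *Smad4del* values lay below the lowest *Ctl* value, that of A5219. *Ackr1* had a log2 fold change of -1.84 ± 0.25 (SE, limma adjusted p = 0.00253), 3.57-fold lower, and the call stood without any single mouse. *Ackr3* (chr1:90203980-90216751, + strand), which takes up CXCL12 and CXCL11, was at 539, 321, 656, 270.4 and 523 in *Ctl* and 107, 60.9, 206, 154 and 172 in *Smad4del* mice. The groups did not overlap here either. *Ackr3* had a log2 fold change of -1.76 ± 0.34 (SE, limma adjusted p = 0.0133), 3.38-fold lower, again without any dependence of the call on 1 mouse. *Ackr2* (chr9:121898355-121911074, + strand), a scavenger of inflammatory CC ligands, was at 186, 123, 291, 222 and 212 in *Ctl* and 70.5, 97.8, 56.8, 153 and 72.0 in *Smad4del* mice. A5447 lay above A5219 and so inside the *Ctl* range, and the log2 fold change was -1.23 ± 0.30 (SE, limma adjusted p = 0.0341). That call was lost without any single mouse except A5219 and A5447 (limma adjusted p up to 0.0847). *Ackr4*, which takes up CCL19, CCL21 and CCL25, was at 66.4, 84.1, 62.0, 34.5 and 98.8 in *Ctl* and 20.7, 2.00, 0, 6.45 and 49.1 in *Smad4del* mice. Only A5624 reached the *Ctl* range, and the log2 fold change of -3.14 was not called (limma adjusted p = 0.0569). Its exons share 479 bases with *Acad11* on the opposite strand. The same-strand neighbour of *Ackr1*, *Cadm3*, shares 361 bases of exon and was at 0 to 9.13, far below *Ackr1*. The endothelial marker sums were lower in all 5 *Smad4del* mice as well.

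Of the signalling receptors, 0 were called by limma, DESeq2 or edgeR among 6 tested CC receptors and 4 tested CXC and CX3C receptors. At an unadjusted p under 0.05 each tool had 3, all lower, and the share of all genes at that threshold was not counted. *Cx3cr1*, the fractalkine receptor of monocytes and macrophages, had the highest mean count of all receptors and was at 2205, 617, 385, 1436 and 115 in *Ctl* and 531, 123, 165, 20.3 and 83.5 in *Smad4del* mice. *Ccr1* was at 1182, 326, 287, 465 and 94.4 in *Ctl* and 517, 141, 112, 24.9 and 12.5 in *Smad4del* mice. For both, the values within a group differed by more than 10-fold, with A5215 highest and A5216 highest of the *Smad4del* mice. The log2 fold changes were -2.43 (95% interval -4.34 to -0.51, limma adjusted p = 0.105) and -2.15 (-4.15 to -0.15, adjusted p = 0.155). *Ccr2*, the receptor of CCL2 and CCL7, was at 51.1 to 765 in *Ctl* and 27.1 to 483 in *Smad4del* mice. *Cxcr4*, the receptor of CXCL12, was at 14.4 to 326 and 4.61 to 207. The lymphocyte receptor *Ccr7* was at 16.7 to 276 and 8.35 to 198, and *Ccr10* at 0 to 22.1 and 0 to 31.4. *Ccr4*, *Ccr8*, *Ccr9* and *Cxcr5* did not exceed 27.0 in any mouse.

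Several of these genes varied between mice along with the marker RNA of other cell types. The 3 mice with the highest macrophage and monocyte sums were A5215, A5626 and A5216, and the same 3 mice held the highest values of 9 of the 42 genes (*Ccl4*, *Ccl6*, *Ccl9*, *Ccl24*, *Cxcl14*, *Ccr1*, *Ccr2*, *Cxcr2* and *Cxcr4*), or 21.4%, against 4.14% of all tested genes. A5215 was the highest mouse for 25 of the 42 (59.5%, against 21.7% of all tested genes) and for 19 of the 32 uncalled ones. Conversely A5215 was the lowest of all 10 mice for *Ccl2*, *Ccl20*, *Cxcl3* and *Cxcl5*. *Ptprc*, which encodes CD45, the protein sorted against, ran from 94.4 to 2719 in *Ctl* and from 54.3 to 1176 in *Smad4del* mice (exact permutation test, two-sided, p = 0.143). Without A5215, limma called 4 of the 42 lower, and it called 199 of all genes higher and 461 lower.

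**Figure D4:**
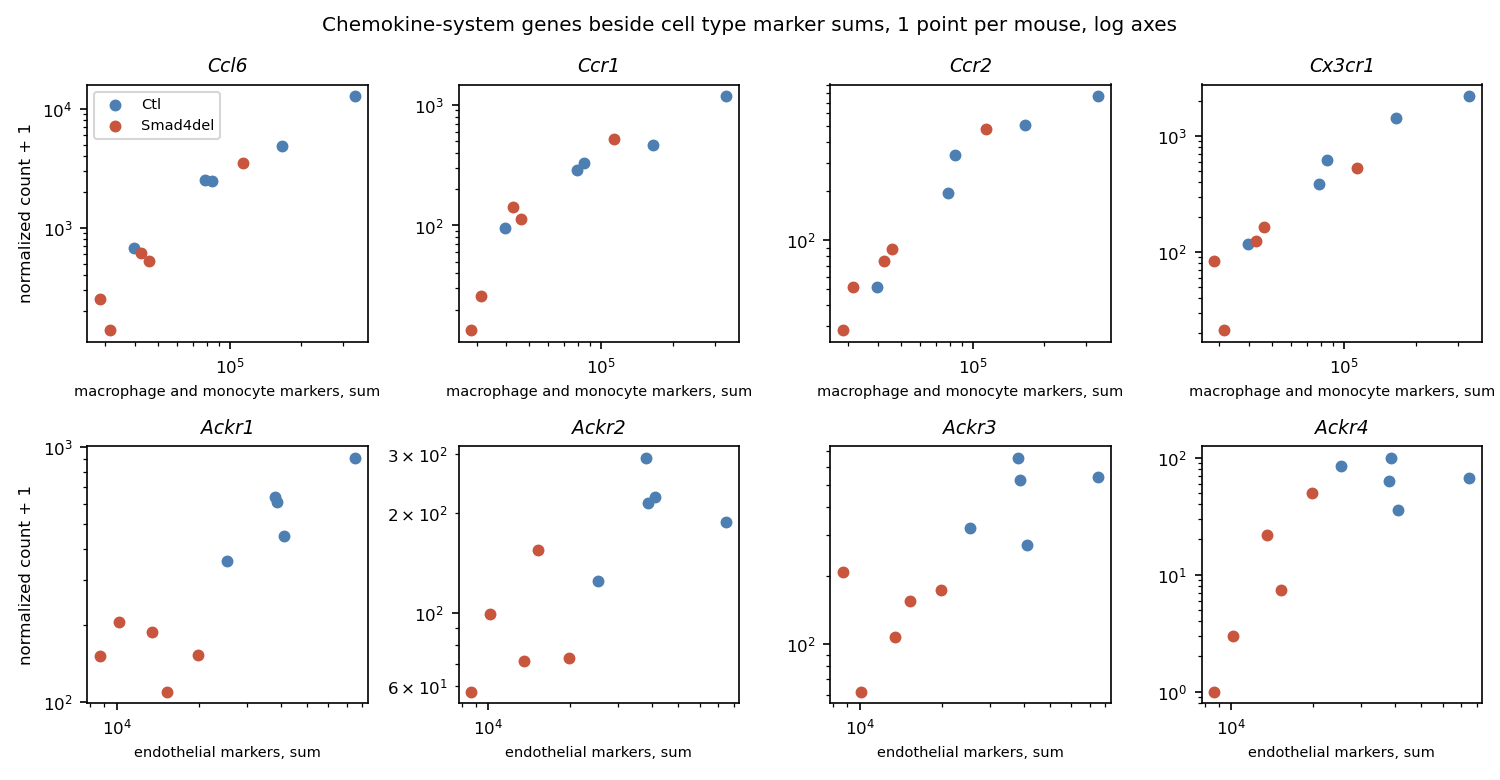
Normalized count + 1 of 8 genes (y axes, log scale) against the summed counts of 18 macrophage and monocyte markers (upper row, x axes, log scale) or 16 endothelial markers (lower row) in each *Ctl* (blue) and *Smad4del* (red) mouse. *Ccl6*, *Ccr1*, *Ccr2* and *Cx3cr1* rise along the macrophage sums in mice of both groups, while the *Ctl* and *Smad4del* mice separate along the endothelial sums as they do for *Ackr1* and *Ackr3*.

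With the macrophage and monocyte level of each mouse as a term in limma, 2 of the 42 genes were still called lower, *Ackr1* (log2 fold change -1.56, adjusted p = 0.0219) and *Ackr3* (-1.99, adjusted p = 0.0328), and 371 of all genes were lower and 142 higher. The other 7 lower genes lost the call and kept a fold change below 0. Their values were -1.46 for *Ackr2*, -1.42 for *Ccl7*, -2.55 for *Cxcl11*, -1.03 for *Ccl5*, -1.24 for *Cxcl10*, -2.24 for *Ccl11* and -1.72 for *Ccl24*. At an unadjusted limma p under 0.05, 11 of the 42 genes were lower and 3 higher. The share of all genes at that threshold was not counted. Among the 11 were the uncalled *Cxcl1* (-0.68, limma adjusted p = 0.0616) and *Ccl2* (-0.60, limma adjusted p = 0.0913). In that fit the uncalled *Ccl6* was at -0.23, *Ccr1* at 0.18 and *Ccr2* at 0.41 on the log2 scale. With the endothelial level as a term, 0 of the 42 genes were called by limma, and 3 of all genes were lower and 1 higher. At an unadjusted limma p under 0.05, 3 of the 42 were lower, *Ackr1* at -1.27, *Ccl2* at -0.95 and *Ccl20* at -1.22. The share of all genes at that threshold was not counted here either. The endothelial sums did not overlap between the groups, so this term and the deletion of *Smad4* are nearly the same split of the mice and cannot be told apart. The stellate and fibroblast sums did not overlap either, and their part in the values of *Ccl11*, *Cxcl12* and *Ackr3* was not tested.

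Beyond the 60 genes, 34 other genes of the chemokine system were looked up: chemokine-like ligands and their receptors, proteases, G proteins, arrestins, receptor kinases and signalling adaptors. Of these, 33 were in the table and 30 were tested; 3 were lower in *Smad4del* mice by limma, or 10.0% against 4.69% of all tested genes, and 27 were not called. Of the 30 log2 fold changes 26 were below 0 (86.7%, against 50.6% of all tested genes), with a median of -0.43 against -0.0050. A5215, the mouse with the highest macrophage sum, was the highest mouse for most of the 30. With the macrophage and monocyte level as a term, some of these fold changes turned above 0 and others stayed below. The cause of the shift was not tested. With the group as the only term, none of the 30 was called higher by limma, DESeq2 or edgeR. In each, 1 was higher at an unadjusted p under 0.05, again without a count over all genes. *Rarres2*, which encodes chemerin, an attractant of dendritic cells and macrophages, was at 1479.9, 674, 2650.1, 1470.0 and 1353 in *Ctl* and 443, 356, 565, 666 and 671 in *Smad4del* mice (log2 fold change -1.41, limma adjusted p = 0.0208). *Adam10*, a protease that sheds membrane-bound CX3CL1 and CXCL16, was at 4338 ± 805 in *Ctl* and 2892 ± 513 in *Smad4del* mice (log2 fold change -0.59, adjusted p = 0.0345). *Ptk2b*, a kinase downstream of chemokine receptors, was at 1803 ± 258 and 1326 ± 87.7 (log2 fold change -0.43, adjusted p = 0.0322). The call of *Rarres2* was lost without A5217 or A5218, that of *Adam10* without any one of A5215, A5626, A5628, A5217 or A5218, and that of *Ptk2b* without any one of A5215, A5221, A5626, A5216, A5217 or A5218 (adjusted p up to 0.0584, 0.0878 and 0.0777). The platelet chemokines *Pf4* and *Ppbp*, with log2 fold changes of 0.09 and 0.84, and *Mif*, with 0.39, were not called (limma adjusted p = 0.908, 0.518 and 0.0951). With the macrophage and monocyte level as a term, limma called *Pf4* (log2 fold change 1.11, adjusted p = 0.0161) and *Ppbp* (2.64, adjusted p = 0.0308) higher. In that fit *Rarres2* (-1.55, adjusted p = 0.0503), *Adam10* (-0.51, adjusted p = 0.128) and *Ptk2b* (-0.38, adjusted p = 0.124) stayed below 0 and lost the call.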

How the data were processed

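The deposited values are signal per gene and mouse: counts that the authors divided by 1 DESeq2 size factor per mouse, with no length correction. Per the methods and the submitters' processing notes, this followed trimming (Trimmomatic 0.36), alignment to GRCm38.p5 (STAR), counting (featureCounts) and normalization with DESeq2 1.14.1 under R 3.3.2; the notes also name mm9. Counts were made both from unique and with multi-mapping reads. The sources used here do not say which kind was deposited, nor how strand was set. SMART-Seq v4 amplifies from little RNA without molecular identifiers, so reads are not independent molecules. The labels carry a cell line tag and culture text, while the methods describe sorted liver cells, as taken here; nothing beyond 1 mouse number per sample says that samples are independent.

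Dividing by the smallest value of each mouse gave whole numbers for 100% of its values (relative tolerance 1e-06), that is 16249719 to 21277339 reads on genes. In A5217 1 read is worth 0.998, so close to 1 that count tests were run with and without it. The libraries were distinct: over the 45 pairs of mice, a chi-square test of the reads gave at least 25.4 per degree of freedom.

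The main test was limma 3.58.1 in R 4.3.3, on log2(normalized count + 1) of the 14870 genes with a mean of at least 10, with the group as the only term, a trended prior and Benjamini-Hochberg adjustment at 0.05, two-sided. Alternatives were pseudocounts of 0.5 and 10, no minimum and a minimum of 50, median and quantile scaling, array weights, a robust prior, a term for the range of mouse numbers (A52 against A54 and A56), macrophage and endothelial levels as terms, each mouse left out, and tests of the recovered reads with edgeR 4.0.16 and DESeq2 1.42.0. *Ptprc* was compared with an exact permutation test, whose smallest p is 0.00794. 1 gene of the 42 entered every fit and count and is not reported here by name. Scripts were tested on simulated data. Of the 60 genes, values per mouse are given for called genes, genes whose groups do not overlap, and the 6 ligands and 4 receptors with the highest mean, as well as for some others chosen after their values were seen. The genes, lists and markers were chosen with earlier results of these data known. Gene positions and lengths are those of GENCODE on GRCm38 (release M21), and promoter windows those of RefSeq on GRCm38.p6.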

Additional observations from a re-analysis of the deposited data

Results flagged for a closer look

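In 84 groups of 5 mice (42 genes, *Ctl* and *Smad4del*), 2 held a mouse far from the others by Dixon's test at its 95% critical value, taken on log2(normalized count + 1), against about 1 in 20 groups by chance. *Cxcl11* was at 11.0 in the *Ctl* mouse A5219, while the other *Ctl* mice were at 40.7 to 67.5; A5219 still lay above all *Smad4del* mice. *Ccl28*, a mucosal ligand of CCR10, was at 0.998 in the *Smad4del* mouse A5217, the value of 1 read, while the other *Smad4del* mice were at 19.8 to 30.1. On the normalized counts themselves, a scale chosen after the values were seen, 15 of the 84 groups held such a mouse, always the highest of its group. It was the *Ctl* mouse A5215 in 5 of them, among others for *Ccl9* at 3742 and *Cxcl12* at 3037, and the *Smad4del* mouse A5216 in 10, among others for *Ccl6* at 3526 and *Ccr2* at 483.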

How the results depend on the processing

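By limma, 1 of the 42 genes was higher and 9 were lower. The 1 higher became 0 with no minimum, the term for the range of mouse numbers, the macrophage or endothelial term, and edgeR on 10 or 9 mice; leaving out single mice gave 0 to 1. The 9 lower became 2 with the macrophage term, 0 with the endothelial term and 3 with edgeR on 9 mice, and 3 to 11 without single mice. Over all genes, 362 higher became 209 with no minimum, 626 with median scaling, 579 with quantile normalization, 142 with the macrophage and 1 with the endothelial term, 894 with DESeq2 on 10 mice and 89 with edgeR on 9, and 99 to 564 without single mice; 697 lower became 371, 3, 1290 and 265 under the last 4 of these settings, and 324 to 841 without single mice. The 3 other chemokine-system genes became 1 with no minimum, 0 with the endothelial term, 6 with DESeq2 on 10 mice and 0 with edgeR on 9, and 0 to 6 without single mice. With the macrophage term 2 such genes were called, *Pf4* and *Ppbp*, both higher, and none of the 3. The cause was not tested. Fewer mice reduce the power of the test by construction.

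No called gene changed sign. Uncalled genes did: with the macrophage term, *Cxcr2* was at 0.20, *Ccl20* -0.25, *Cxcr4* 1.34, *Ccl17* 0.12, *Ccr1* 0.18, *Ccr3* 0.71, *Ccr2* 0.41, *Ccl9* 0.096, *Ccl3* 0.23, *Ccl4* 1.138, *Ccr7* 0.90 and *Cxcl14* 0.62 on the log2 scale. With the endothelial term, *Ccl20* was at -1.22, *Cxcl5* -0.61, *Cxcl3* -0.57, *Cxcl13* 2.46, *Ccl22* -0.38, *Ccl4* 0.36, *Ccr10* -2.03, *Ccl28* 0.060 and *Cxcr3* 0.90. Median scaling turned *Cx3cl1* to 0.021 and *Cxcl16* to 0.017, and quantile normalization turned *Ccl27a* to 0.065, *Cxcl13* to 0.23, *Cx3cl1* to 0.0021 and *Cxcl16* to 0.012. Without single mice, *Ccl20* ran from -0.057 to 0.45, *Cxcl2* from -0.23 to 0.024, *Cxcl13* from -1.27 to 0.52, *Ccl22* from -0.55 to 1.82, *Cx3cl1* from -0.11 to 0.026, *Cxcl16* from -0.085 to 0.0015, *Ccl4* from -0.88 to 0.047, *Ccr7* from -0.92 to 0.37 and *Ccr10* from -0.21 to 1.08. Median and quantile scaling moved the median fold change of all genes by 0.065 and 0.088. No paired analysis was possible because the labels carry mouse numbers but no replicate numbers that groups share; the term for the range of mouse numbers pairs no mice, and with it 10 of the 42 were lower, *Cxcl12* gained and *Cxcl17* lost. The depth limits genes under 10: 11 of the 60 had reads but no test.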
